A study of Rattus norvegicus with 15 samples.

Results

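The genes described here are 10 genes listed as markers of T cells and killer lymphocytes, followed through the life of rat knee cartilage. They are Cd3d, Cd3e and Cd3g (chains of the T cell receptor complex), Cd4, Cd8a and Cd8b (coreceptor chains), Lck (the kinase that starts receptor signalling) and Gzma, Prf1 and Nkg7 (genes of the killing granule). A gene entered through a probe set that carried its symbol and no other, and where a gene had more than 1 such probe set the one with the highest mean would have stood for it. All 10 genes were measured, each by 1 probe set, out of 18166 genes and 36685 probe sets on the array.

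The tissue was articular cartilage, taken from the right knee of rats of the Sprague-Dawley strain at 5 stages. T0 is newborn, T1 youth, T2 adult, T3 the early and T4 the later stage of old age. Each stage had 3 arrays of total RNA from tissue harvested individually, called biological replicates in the labels, and no group carried a treatment or a modified allele. Neither age in days nor sex was available here, and p-values measure the spread between these samples. T1 replicate 3 is youth in its title and stage label but adult in its source name, and it was kept in youth.

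T cells recognise antigen through a receptor whose signal is carried into the cell by the CD3 chains. CD4 or CD8 binds the presenting molecule beside the receptor and brings Lck to it. Killer T cells and natural killer cells store perforin, which opens the membrane of a target cell, and granzymes, which enter through it. Articular cartilage has no blood vessels and normally holds few lymphocytes, whereas the marrow of the bone beneath it is rich in blood-forming cells. Some of the 10 genes are not restricted to T cells: rat macrophages and monocytes also carry CD4, and rat natural killer cells carry CD8 alpha.

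Promoters of the RefSeq assembly GRCr8 were available for 8 of the 10 genes, with 2 starts for Lck. Cd4 and Cd8b had no entry. The 250 bases before the start were searched on both strands for AGGAAG, a form of the ETS site that reads CTTCCT on the other strand. The RUNX site TGTGGT, which reads ACCACA there, was searched too. The E-box form CACCTG, or in reverse CAGGTG, and the TATA box TATAAA, or in reverse TTTATA, were searched in the same way. A match means exactly these letters, and other forms of the sites were not counted. The promoters of Cd3e, of Cd8a, which held neither an ETS nor a RUNX match, and of the Lck start listed last are not printed. ETS and RUNX sites are shown in capitals in the sequences of the other 6 promoters, each with a match. They run 5′ to 3′ towards the start.
Nkg7: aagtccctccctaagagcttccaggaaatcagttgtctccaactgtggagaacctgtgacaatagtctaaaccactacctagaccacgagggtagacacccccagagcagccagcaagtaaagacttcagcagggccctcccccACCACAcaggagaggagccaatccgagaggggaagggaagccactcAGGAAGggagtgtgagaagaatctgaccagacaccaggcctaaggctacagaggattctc
Prf1: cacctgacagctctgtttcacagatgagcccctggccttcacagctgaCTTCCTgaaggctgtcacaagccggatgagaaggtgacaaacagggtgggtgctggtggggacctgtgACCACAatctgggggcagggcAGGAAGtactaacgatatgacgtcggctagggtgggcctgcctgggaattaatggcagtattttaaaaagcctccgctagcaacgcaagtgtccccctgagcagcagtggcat
Gzma: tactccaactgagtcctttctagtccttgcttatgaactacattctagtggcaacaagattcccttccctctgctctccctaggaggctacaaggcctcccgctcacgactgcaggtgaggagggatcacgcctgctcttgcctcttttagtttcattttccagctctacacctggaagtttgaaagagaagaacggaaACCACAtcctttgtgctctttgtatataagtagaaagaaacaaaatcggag
Lck, first listed start: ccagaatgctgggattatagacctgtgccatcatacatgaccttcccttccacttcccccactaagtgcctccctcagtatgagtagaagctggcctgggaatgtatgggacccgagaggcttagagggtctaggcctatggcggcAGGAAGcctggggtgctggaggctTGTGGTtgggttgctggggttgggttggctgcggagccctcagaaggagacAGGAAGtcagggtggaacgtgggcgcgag
Cd3g: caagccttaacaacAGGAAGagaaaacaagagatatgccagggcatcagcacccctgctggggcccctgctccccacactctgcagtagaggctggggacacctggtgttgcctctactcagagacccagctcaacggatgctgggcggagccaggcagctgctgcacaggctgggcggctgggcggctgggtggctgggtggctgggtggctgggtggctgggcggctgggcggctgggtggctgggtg
Cd3d: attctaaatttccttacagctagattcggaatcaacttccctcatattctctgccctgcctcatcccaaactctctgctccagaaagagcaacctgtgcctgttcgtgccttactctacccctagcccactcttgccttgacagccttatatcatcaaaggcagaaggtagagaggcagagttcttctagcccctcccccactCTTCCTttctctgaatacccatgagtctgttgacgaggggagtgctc
The Nkg7 window is chr1:102981247-102981496 on the plus strand, that of Prf1 chr20:29788790-29789039 on the plus strand and that of Gzma chr2:46485697-46485946 on the minus strand. The Lck window is chr5:147201268-147201517 on the minus strand, that of Cd3g chr8:54183919-54184168 on the minus strand and that of Cd3d chr8:54185269-54185518 on the plus strand.

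The Nkg7 promoter held a RUNX match 106 bases and an ETS match 60 bases before the start. Prf1 held ETS matches at 202 and 113 bases and a RUNX match at 134 bases. Gzma held no ETS match and a RUNX match at 51 bases. Lck held ETS matches at 104 and 29 bases and a RUNX match at 80 bases. The promoters of Cd3g, Cd3d and Cd3e each held 1 ETS match, at 236, 47 and 17 bases, and Cd8a held no match to the ETS or RUNX letters searched. An ETS match was thus present for 6 of the 8 genes, a RUNX match for 4, an E-box for 4 and a TATA box for 0. Over all 33469 promoters of the same length in the table, 29.5% held the ETS letters, 14.5% the RUNX letters, 15.9% the E-box and 12.9% the TATA box. These matches describe letters in a window and not bound sites. In the same assembly Cd3g, Cd3d and Cd3e lie next to each other, Gzma lies beside Gzmk and Cd4 beside Lag3.

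The arrays of the oldest stage differed from the rest in their range of signals. The standard deviation over probe sets lay between 2.00 and 2.05 on the log2 scale on the arrays of T0, T1 and T2, between 1.83 and 1.97 at T3 and between 1.48 and 1.71 at T4. T4 replicate 1 stood furthest apart, correlating on average at 0.529 with arrays of T0, T1 and T2, against 0.832 and 0.780 for the other T4 arrays. The 1185 olfactory receptor genes on the array, which serve the nose and here stand for low signal, had a median of 2.92 ± 0.07 at T2 and 3.89 ± 0.44 at T4 (SD, n = 3), so low signals read higher at T4. Their 95th percentile lay between 4.80 and 4.92 at T0 to T2, between 4.96 and 5.58 at T3 and between 5.88 and 6.70 at T4. The cartilage genes Col2a1 (type II collagen) and Acan (aggrecan) stood at 12.36 and 11.68 at T0, and at 8.0 and 6.61 at T4.

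Set beside that percentile of its own array, called the low-signal mark from here on, Cd4 stood above it on 14 of 15 arrays, Lck and Nkg7 on 12 each, Cd8a on 8, and Cd3g, Cd8b and Prf1 on 5 each. Cd3d, Cd3e and Gzma stood above it on 0 arrays. Probe sets differ in their own background, so this is a rough guide to which genes gave more than low signal. At T4 only Cd4 and Nkg7 stood above it, each on 2 of 3 arrays.

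Over the 5 stages, 9 of the 10 genes differed in limma's moderated F test, where 60.1% of all probe sets did. Nkg7 had the smallest p (adjusted p = 5.87e-06), and Cd3e alone did not pass (adjusted p = 0.272). The passes of Cd3d (adjusted p = 0.029), Prf1 (0.035) and Cd8b (0.0122) in limma's F test were the closest to the threshold. That of Cd3d was lost without T0 replicate 1, T0 replicate 3 or T3 replicate 1, with quantile normalization and with arrays centred on their medians. That of Cd8b was lost without T0 replicate 3, and that of Prf1 in 8 of 23 alternatives, among them each T0 array left out. The F test pass of Gzma (adjusted p = 0.00568) was lost without the T4 arrays (adjusted p = 0.368). The mean was lowest at T0 for 9 of the 10 genes, Cd4 being lowest at T4. It was highest at T1 for 2 genes (Cd3g, Cd4), at T2 for 2 (Lck, Nkg7), at T3 for 1 (Cd3d) and at T4 for 5 (Cd3e, Cd8a, Cd8b, Gzma, Prf1). Those 5 genes stood above the low-signal mark on 0 of the 3 T4 arrays, where low signals read higher, so their order of stages at T4 is not a firm one. In total RNA of a tissue, fewer cells of a type and less RNA per cell cannot be told apart.

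**Figure D1:**
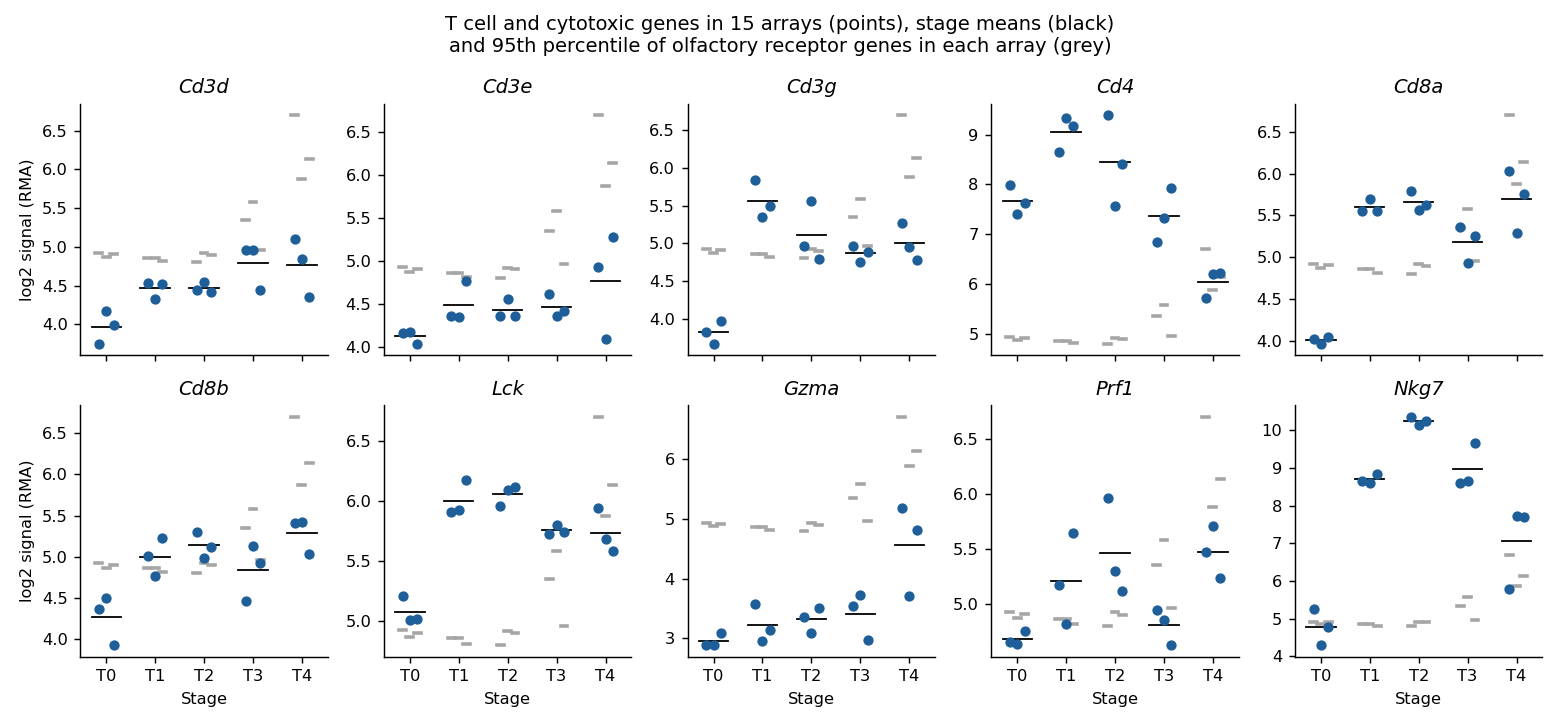
Log2 signal (vertical axis) of each of the 10 genes on every array, by stage T0 to T4 (horizontal axis). Points are arrays, black bars stage means (n = 3) and grey marks the 95th percentile of the olfactory receptor genes on that array, and each panel has its own axis. Nkg7 climbs from 4.78 at T0 to 10.24 at T2 and is at 7.07 at T4, while Cd3e stays between 4.03 and 5.27 on all arrays.

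The probe sets of the 3 CD3 chains differed: Cd3g stood above the low-signal mark on 5 of 15 arrays, and Cd3d and Cd3e on 0. Little change in Cd3d and Cd3e therefore cannot be told apart from a lack of detection. Cd3g, the gamma chain, gave log2 signals of 3.82, 3.67 and 3.97 on the T0 arrays. At T1 it gave 5.84, 5.35 and 5.50, and at T2 4.96, 5.56 and 4.79. The lowest T1 array thus lay more than 1 log2 unit above the highest T0 array. Cd3g rose 3.35-fold from T0 to T1 (log2 change 1.74, SE 0.23, limma adjusted p = 0.000192) and was still 1.29 above T0 at T2 (SE 0.23, limma adjusted p = 0.00107). Its later levels, 4.87 ± 0.11 at T3 and 5.0 ± 0.25 at T4 (SD, n = 3), overlapped those of T2.

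Cd3d, the delta chain, read 3.75, 4.17 and 3.99 at T0 and 4.54, 4.33 and 4.53 at T1. The groups did not overlap, but the change of 0.49 (SE 0.22) did not pass in limma (adjusted p = 0.276). Cd3e, the epsilon chain, read 4.15, 4.17 and 4.03 at T0 and 4.36, 4.34 and 4.76 at T1. Its change of 0.37 (SE 0.25, limma adjusted p = 0.619) did not pass, again without overlap. The widest spread of Cd3e was at T4, where the arrays gave 4.93, 4.09 and 5.27. Without T4 replicate 2, the lowest of these, Cd3e rose from T3 to T4 by 0.64 (limma adjusted p = 0.0187) and from T2 to T4 by 0.68 (adjusted p = 0.0109), and it passed the F test. Cd3e was above the low-signal mark on 0 arrays. The median of the olfactory receptor genes stood 0.67 higher at T4 than at T3, and 0.97 higher than at T2. The part of that shift in the Cd3e rises was not tested.

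The CD8 chains, which pair on killer T cells, were both lowest at T0. Cd8a read 4.02, 3.97 and 4.04 in newborns and 5.56, 5.70 and 5.55 in youth, with the smallest SD of the 10 genes at both stages. It was 5.80, 5.57 and 5.63 at T2, 5.37, 4.94 and 5.26 at T3 and 6.03, 5.29 and 5.75 at T4. All T1 and T2 arrays lay above all T0 arrays. From T0 to T2 the change was 1.65 (SE 0.20, limma adjusted p = 4.59e-05). Every T3 array lay below every T2 array, a change of -0.48 (SE 0.20) that did not pass in limma (adjusted p = 0.21). The step from T3 to T4, 0.51 (SE 0.20, limma adjusted p = 0.0566), missed the threshold, and passed without T4 replicate 2 (0.71, adjusted p = 0.00872). Cd8a was above the low-signal mark on 0 T4 arrays. The median of the olfactory receptor genes stood 0.67 higher at T4 than at T3, and the part of that shift was not tested.

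Cd8b moved less. It read 4.36, 4.50 and 3.93 at T0, 5.0, 4.76 and 5.23 at T1 and 5.30, 4.99 and 5.12 at T2. The T1 and T2 arrays all lay above the T0 arrays. The first step, 0.73 (SE 0.23), missed the threshold in limma (adjusted p = 0.0749). Over T0 to T2 Cd8b rose 1.83-fold (0.87, SE 0.23, limma adjusted p = 0.0194), a call that was lost without T0 replicate 3 (change 0.70, adjusted p = 0.104), T2 replicate 1 (0.79, adjusted p = 0.0795) or T2 replicate 3 (0.88, adjusted p = 0.0603). After T2 no Cd8b step passed.

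Cd4, the coreceptor of helper T cells, followed another course. The T0 arrays gave 7.99, 7.41 and 7.62, and the T1 arrays 8.65, 9.33 and 9.17. At T2 the arrays spread widely, at 9.39, 7.56 and 8.41. The level was 6.85, 7.33 and 7.92 at T3 and 5.72, 6.20 and 6.21 at T4, below every T0 array. From T0 to T1 Cd4 rose 2.60-fold (1.38, SE 0.39, limma adjusted p = 0.048). That call stood at the threshold and was lost in 16 of 24 alternatives, including each T0 or T1 array left out, with the change between 1.24 and 1.58 and the adjusted p between 0.00284 and 0.188. The fall from T2 to T4, 5.30-fold (-2.41, SE 0.39, limma adjusted p = 0.000254), passed in all 23 alternatives run, with changes between -2.85 and -1.89. From T3 to T4 Cd4 fell by 1.32 on the log2 scale (SE 0.39, limma adjusted p = 0.0166). Without T3 replicate 3 that step was -1.04 (adjusted p = 0.0756) and without T4 replicate 1 it was -1.16 (adjusted p = 0.0604). With quantile normalization it was -1.06 (adjusted p = 0.0517).

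Since rat macrophages also carry CD4, the macrophage markers are set beside it. Csf1r, the receptor for a macrophage growth factor, had means of 8.10, 9.12, 8.46, 7.93 and 6.10 at T0 to T4. Between T2 and T4, 7 of 8 macrophage markers fell, with a median change of -1.33, where 29.4% of all probe sets were called lower. The summed linear signal of these 8 genes ranged from 1252 to 1712 on newborn arrays, 1822 to 2140 on T1 arrays and 1309 to 2077 on T2 arrays. It ranged from 1193 to 1663 at T3 and from 406 to 772 at T4. Their part in the course of Cd4 was not tested.

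Lck read 5.21, 5.01 and 5.02 at T0 and 5.91, 5.92 and 6.18 at T1. At T2 it read 5.96, 6.09 and 6.12. No T1 or T2 array overlapped T0, and the rise to T1 was 1.89-fold (0.92, SE 0.17, limma adjusted p = 0.00246). Later levels were 5.76 ± 0.04 at T3 and 5.74 ± 0.18 at T4 (SD, n = 3), lower than every T2 array. The change from T2 to T4, -0.32 (SE 0.17), did not pass in limma (adjusted p = 0.115) but did without T4 replicate 1 (-0.42, adjusted p = 0.041). Cd3g, Cd8a, Lck and Nkg7 kept their rise from T0 to T1 and from T0 to T2 in all 24 alternatives.

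Nkg7, a membrane protein of the killing granule, showed the widest range of the 10 genes. The newborn arrays gave 5.26, 4.29 and 4.77, and the T1 arrays 8.64, 8.61 and 8.85. At T2 the arrays gave 10.36, 10.13 and 10.24. All 3 stages were thus separate, in rising order. Gzma and Prf1, the other granule genes, passed neither from T0 to T1 nor from T0 to T2. Which cells carried Nkg7 was not tested. From T0 to T1 Nkg7 rose 15.2-fold (3.93, SE 0.44, limma adjusted p = 5.95e-05), and from T0 to T2 by 5.47 on the log2 scale (SE 0.44, limma adjusted p = 1.29e-06). The step from T1 to T2, 1.54 (SE 0.44), did not pass in limma (adjusted p = 0.163), although it did without T4 replicate 1 (adjusted p = 0.0135), an array that enters only through the pooled spread.

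The T3 arrays of Nkg7 read 8.59, 8.66 and 9.67, and the T4 arrays 5.79, 7.72 and 7.71. Every T3 array was below T2 and every T4 array below T3, and T3 overlapped T1. The fall from T2 to T3 was 1.27 on the log2 scale without passing in limma (adjusted p = 0.15), and passed without T3 replicate 3 (-1.62, adjusted p = 0.0431) or T4 replicate 1 (adjusted p = 0.0323). From T3 to T4 Nkg7 fell 3.73-fold (-1.90, SE 0.44, limma adjusted p = 0.00482). Without T4 replicate 1, where it was lowest, this fall was -1.26 (adjusted p = 0.00997). The call was lost with quantile normalization (-1.40, adjusted p = 0.0504) and with only the T3 and T4 arrays in the fit (adjusted p = 0.0662). From T2 to T4 it fell 8.99-fold (-3.17, SE 0.44, limma adjusted p = 9.6e-05). Without T4 replicate 1 that fall was -2.53 (adjusted p = 8.07e-05).

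Prf1, which encodes perforin, read 4.65, 4.63 and 4.76 at T0, 5.17, 4.82 and 5.65 at T1 and 5.96, 5.30 and 5.12 at T2. All T1 and T2 arrays exceeded the T0 arrays. Neither the change to T1 (0.53, SE 0.25, limma adjusted p = 0.325) nor that to T2 (0.78, SE 0.25, limma adjusted p = 0.0609) passed, though the latter did without T1 replicate 3 (adjusted p = 0.0493) or T2 replicate 3 (adjusted p = 0.0466). At T3 Prf1 read 4.95, 4.85 and 4.62, below every T2 array, and at T4 5.47, 5.70 and 5.23, above every T3 array. The last step rose 1.58-fold (0.66, SE 0.25, limma adjusted p = 0.0482), and this call was lost in 14 of 23 alternatives, without T3 replicate 3 (0.57, adjusted p = 0.137) and T4 replicate 1 (0.66, adjusted p = 0.0871) among them. Prf1 stood above the low-signal mark on 0 arrays of T3 and T4, and the median of the olfactory receptor genes stood 0.67 higher at T4 than at T3. The part of that shift in the Prf1 result was not tested.

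Gzma, granzyme A, lay low throughout youth and adult life. Its arrays read 2.89, 2.90 and 3.09 at T0, 3.58, 2.96 and 3.14 at T1 and 3.36, 3.09 and 3.52 at T2. At T3 it read 3.54, 3.73 and 2.98, and at T4 5.18, 3.71 and 4.80. Only at T4 did any array exceed 4. From T2 to T4 Gzma rose 2.37-fold (1.24, SE 0.32, limma adjusted p = 0.0052), and without T4 replicate 1 the rise was 0.94 (adjusted p = 0.0246). From T3 to T4 it rose by 1.15 (SE 0.32, limma adjusted p = 0.0123). Without T3 replicate 3 this was 0.93 (adjusted p = 0.0567) and without T4 replicate 1 it was 0.84 (adjusted p = 0.0553). The median of the olfactory receptor genes stood 0.97 higher at T4 than at T2, and every Gzma value at T4 lay under their 95th percentile on that array. The part of this shift of low signals in the Gzma result was not tested.

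From T0 to T1, the step from newborn to youth, 5 of the 10 genes rose (Cd3g, Cd4, Cd8a, Lck and Nkg7) and 0 fell, where 7.56% of all probe sets were called, 4.01% as higher and 3.54% as lower. All T1 arrays lay above all T0 arrays for 9 of the 10 genes, Gzma being the exception, against 14.9% of probe sets. The median change of the 10 was 0.83, and that of all probe sets -0.03. Without any single T0 or T1 array the count was 4, Cd4 being lost, and likewise without T2 replicate 3, T3 replicate 2, T4 replicate 2 or T4 replicate 3.

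From T1 to T2 none of the genes passed in limma, where 0.891% of all probe sets were called, 0.488% as higher and 0.403% as lower. Of the calls over all probe sets 54.7% were higher, and 42.9% with quantile normalization. At an unadjusted p under 0.05 there was 1 of the 10 genes (Nkg7), against 8.52% of all probe sets. With the intensity trend and robust eBayes the count was also 0, and without T4 replicate 1 it was 1. The median change of the 10 was 0.06. From T0 to T2, 5 genes rose (Cd3g, Cd8a, Cd8b, Lck and Nkg7), where 12.7% of all probe sets were called, 6.51% as higher and 6.19% as lower. These comparisons share arrays with one another, so the genes' calls in them are not separate evidence.

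From T2 to T3 limma again called 0 of the 10 genes, where 0.15% of all probe sets were called, 0.0382% as higher and 0.112% as lower. With quantile normalization 0 of 10 called probe sets were higher, against 14 of 55. At an unadjusted p under 0.05 there were 4 (Cd4, Cd8a, Prf1 and Nkg7), all with lower means at T3, against 19.8% of all probe sets. The intensity trend and robust eBayes also called 0, and limma called 1 (Nkg7) without T3 replicate 3 or T4 replicate 1. All T3 arrays lay under all T2 arrays for 4 genes (Cd8a, Lck, Prf1 and Nkg7), against 10.4% of probe sets.

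From T3 to T4, 2 genes rose (Gzma and Prf1) and 2 fell (Cd4 and Nkg7), where 42.2% of all probe sets were called, 16.5% as higher and 25.8% as lower. The members' share of 4 in 10 was close to that background. With quantile normalization both falls narrowly missed the threshold, Cd4 standing at -1.06 (limma adjusted p = 0.0517) and Nkg7 at -1.40 (adjusted p = 0.0504). In that fit 3 genes rose (Cd8a, Gzma and Prf1) and 0 were called lower. Of the calls over all probe sets 51.4% were then higher, in place of 39.0%. Both falls passed with arrays centred on their medians. With only the arrays of T3 and T4 in the fit, 0 of the 10 genes passed. Without T3 replicate 3 or T4 replicate 1 the count fell to 1, Nkg7. From T2 to T4, 1 gene rose (Gzma) and 2 fell (Cd4 and Nkg7), where 56.5% of all probe sets were called, 27.2% as higher and 29.4% as lower. The median change of the 10 genes was 0.02, and that of all probe sets 0.06.

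**Figure D2:**
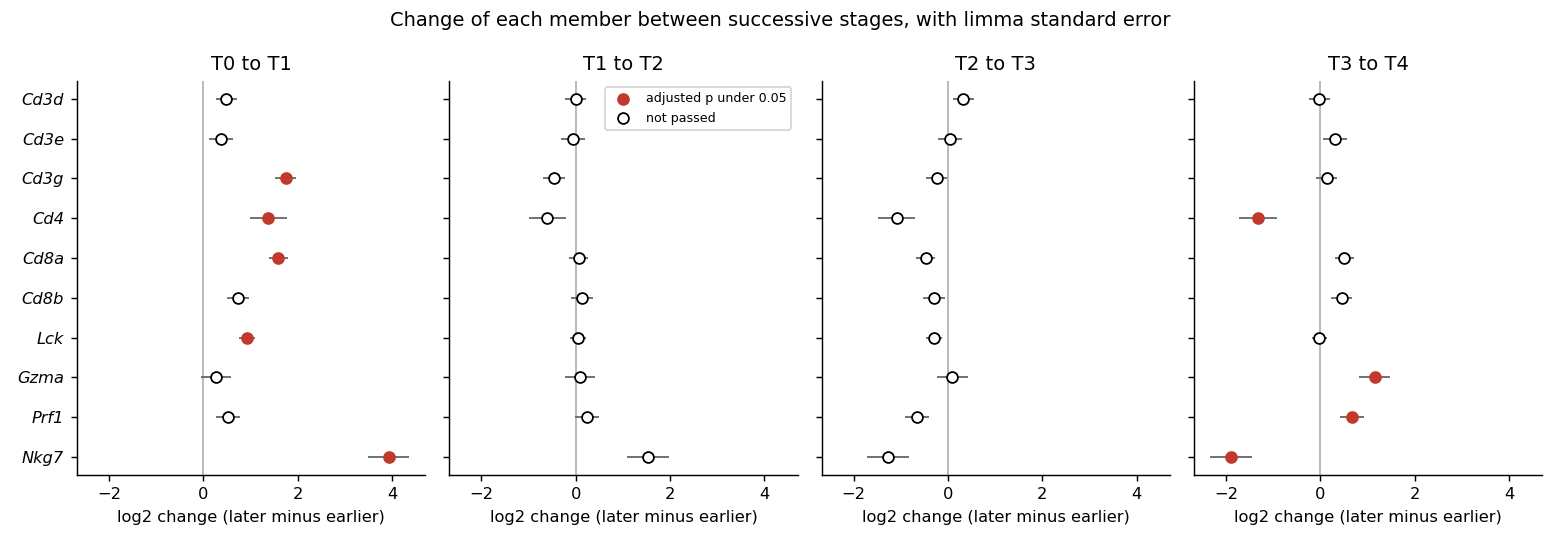
Log2 change of each gene between successive stages (horizontal axis, later minus earlier) with limma's standard error, one panel a step. Filled points passed at an adjusted p under 0.05: 5 at T0 to T1, 0 at the next 2 steps and 4 at T3 to T4, where Gzma and Prf1 lie right of 0 and Cd4 and Nkg7 left of it.

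Ptprc, which encodes CD45 and is carried by all white blood cells, had means of 6.21, 9.25, 10.18, 9.60 and 7.66 at T0 to T4. From T0 to T1 Ptprc rose by 3.03 (SE 0.58, limma adjusted p = 0.00361). Nkg7 was set against it within each array, where a shift common to all signals of an array cancels but a change in their range does not. Nkg7 minus Ptprc was -1.44 ± 0.36 in newborns, -0.55 ± 0.05 in youth, 0.06 ± 0.34 in adults, -0.63 ± 0.41 at T3 and -0.58 ± 0.60 at T4 (log2, SD, n = 3). The T1 arrays all lay above the T0 arrays and the T2 arrays above the T1 arrays, and the later stages overlapped. Both steps had an exact two-sided permutation p of 0.1, the smallest that 3 arrays against 3 allow (adjusted p = 0.166 over 48 such tests), so neither could pass the threshold. Nkg7 stood above the low-signal mark on 1 of 3 newborn arrays, so its newborn difference rests partly on low signal. At T4, replicate 1 gave 0.09 and the others -1.07 and -0.76. Differences of the CD3 mean to Ptprc and to Nkg7 were among the 48 tests. The CD3 mean minus Ptprc was -2.24 at T0, -5.52 at T2 and -2.81 at T4. These differences are not read further, since Cd3d and Cd3e stood above the low-signal mark on 0 arrays.

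**Figure D3:**
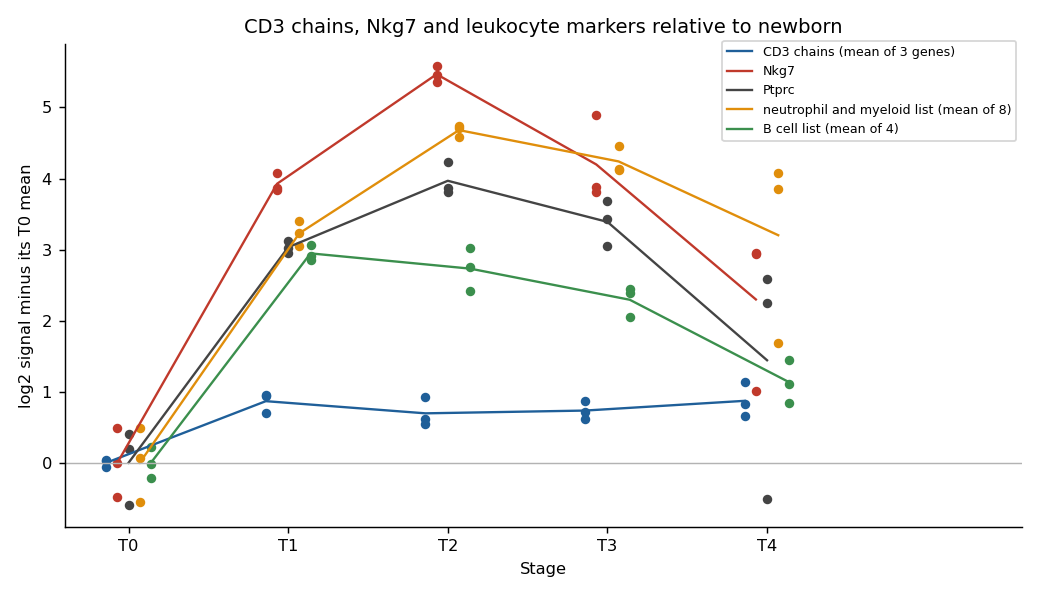
Log2 signal minus the T0 mean (vertical axis) by stage (horizontal axis) for the mean of the 3 CD3 chains, Nkg7, Ptprc, the mean of 8 neutrophil and myeloid genes and the mean of 4 B cell genes. Points are arrays and lines join stage means, n = 3. At T2 Nkg7 stands 5.47, Ptprc 3.97 and the CD3 mean 0.70 above newborn, and at T4 the arrays of Nkg7 and Ptprc spread widely. Cd3d and Cd3e, 2 of the 3 chains in the CD3 mean, stood above the low-signal mark on 0 arrays.

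Other genes of the T cell receptor pathway moved unevenly from T0 to T1. At this step 4.01% of all probe sets were called higher and 3.54% lower. Of 14 measured genes of the receptor complex and its nearest signalling, 6 rose and 0 fell (median change 0.53). They were Grap2 (3.38), Lcp2 (2.34), Ptpn22 (1.75), Rasgrp1 (1.44), Sit1 (1.37) and Ubash3a (0.84, each a log2 change). Grap2 and Lcp2 encode adaptors that link the receptor to its targets, and both also act in other blood cells. The zeta chain gene Cd247 changed by 0.16, the kinase gene Zap70 by 0.38 and the adaptor gene Lat by 0.62, none passing. Between T2 and T4, 3 of the 14 rose, Cd247 (0.97), Zap70 (0.78) and Skap1 (0.90), and 5 fell, with Lcp2 at -3.36 and Fyn at -2.18. Over all probe sets 27.2% were called higher and 29.4% lower, so 8 of 14 is near the background of 56.5%. The means of the 3 that rose lay between 4.2 and 6.44 at T2 and T4, and the median of the olfactory receptor genes stood 0.97 higher at T4, whose part was not tested.

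Of 19 measured surface and costimulation genes, 4 rose from T0 to T1, against 4.01% of all probe sets, and 0 fell (median change 0.38). The 4 were Il7r (2.73), Cd226 (2.32), Cd7 (1.69) and Il2rg (1.56). Il7r encodes the receptor for a survival signal of lymphocytes. Cd2, Cd5, Cd27 and Cd28 did not pass, at 0.69, 0.38, 0.51 and -0.10. Among 14 transcription factors 5 rose, against the same 4.01%, and 0 fell (median 0.20): Ikzf1 (2.98), Ikzf3 (2.60), Satb1 (1.13), Ets1 (0.87) and Lef1 (0.62). Among the factors that did not pass were Bcl11b (0.18), Gata3 (-0.03) and Tcf7 (0.03).

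Of 8 genes listed for receptor rearrangement and early thymocytes, 5 rose from T0 to T1 (median 0.85), against 4.01% of all probe sets. Rag1 (2.94), Rag2 (2.18) and Dntt (1.93), which cut and extend receptor genes in developing T cells and B cells alike, were among them, with Themis2 (0.99) and Cd1d1 (0.70). Themis itself was not measured. Ptcra, which encodes the pre-T cell receptor alpha chain, read 4.63 at both stages, and Arpp21 (-0.19) and Notch1 (-0.11) did not pass. Later, between T2 and T4, 5 of the 8 fell, where 29.4% of all probe sets were called lower, and Ptcra rose by 0.77, less than the shift of 0.97 in the olfactory median.

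Of 17 cytotoxic granule and effector genes, 5 rose from T0 to T1, against 4.01% of all probe sets, and 0 fell (median 0.44). Srgn (3.86), the proteoglycan core that packs granule contents in many blood cells, Cst7 (2.07), Rab27a (1.40), Ctsw (0.96) and Gzmm (0.72) rose. The granzyme genes Gzmb (-0.06) and Gzmk (0.21) and the cytokine gene Ifng (-0.35) did not pass. From T1 to T2, 2 of the 17 rose (Cst7 and Unc13d), where 0.488% of all probe sets were called higher. Over T2 to T4, 8 of the 17 fell and 2 rose, Gzmb (1.22, from 2.77 to 3.99) and Ifng (1.21, from 4.38 to 5.59). Those 10 of 17 are near the 56.5% of all probe sets called, and the olfactory median stood 0.97 higher over the same comparison. Of 16 natural killer receptor genes, 3 rose from T0 to T1, against 4.01% of all probe sets: Klrk1 (2.05), its adaptor Hcst (2.03) and Fcgr3a (1.18). Klrd1 (0.64) and Ncr1 (0.11) did not pass.

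**Figure D4:**
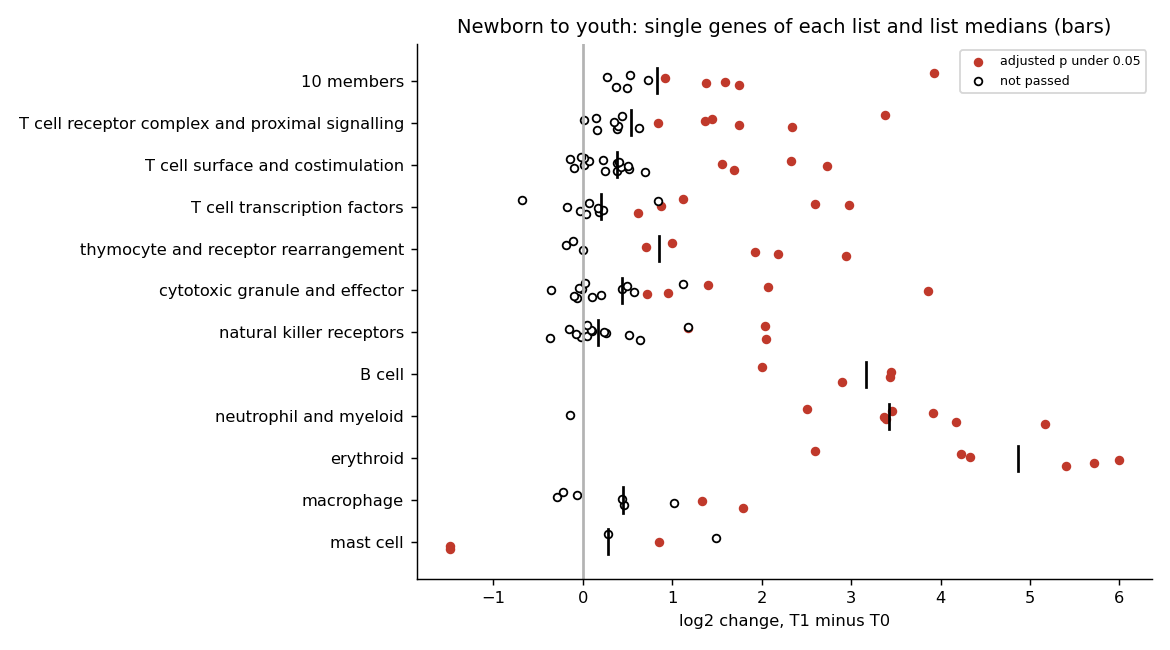
Log2 change from T0 to T1 (horizontal axis) of every measured gene of the members, of 6 T cell and killer cell lists and of lists for other blood cells. Each point is a gene, filled where limma's adjusted p was under 0.05, and vertical bars are list medians. The median is 0.83 for the 10 members, 3.17 for the 4 B cell genes, 3.42 for the 8 neutrophil and myeloid genes and 4.87 for the 6 erythroid genes.

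Markers of B cells, neutrophils and the erythroid line rose from T0 to T1, as did 5 of the 10 members. Between T2 and T4, where the range of signals narrowed, the median change was 0.02 for the members. The median was -1.62 for the B cell, -1.35 for the neutrophil and myeloid and -1.88 for the erythroid genes. Of the 5 members that had risen, Nkg7 (-3.17) and Cd4 (-2.41) fell. Cd3g (-0.11), Cd8a (0.03) and Lck (-0.32) did not pass, and stood above the low-signal mark on 0 T4 arrays. From T0 to T1, 4 of 4 B cell genes rose (median 3.17, Ms4a1 by 3.45), 7 of 8 neutrophil and myeloid genes (median 3.42, Mpo by 5.17) and 6 of 6 erythroid genes (median 4.87). Of 8 macrophage markers 2 rose, and of 5 mast cell markers 1 rose and 2 fell. Of all probe sets 4.01% were called higher at that step and 3.54% lower. The summed linear signal of the 8 neutrophil and myeloid genes ranged from 277 to 749 at T0, 5727 to 7331 at T1, 18055 to 20483 at T2, 14499 to 16392 at T3 and 1767 to 17081 at T4. That of the 6 erythroid genes ranged from 174 to 396 at T0, 8183 to 9336 at T1, 6624 to 8229 at T2, 5254 to 7394 at T3 and 530 to 3800 at T4. That of the 4 B cell genes ranged from 132 to 170 at T0, 1235 to 1366 at T1, 908 to 1454 at T2, 730 to 939 at T3 and 275 to 509 at T4. Skeletal muscle genes moved the other way, with 6 of 6 falling from T0 to T1 (median -2.29) and from T0 to T2 (median -5.74). In these comparisons 3.54% and 6.19% of all probe sets were called lower. The summed linear signal of the 6 muscle genes ranged from 14563 to 19899 at T0, 2913 to 4966 at T1 and 242 to 309 at T2. It ranged from 350 to 761 at T3 and from 422 to 1514 at T4. No marker was at 0 on any array, since the array gives a signal for every probe set. The part of these cells and of muscle in the changes of Nkg7, Lck, Cd8a, Cd3g and Cd4 was not tested.

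The genes whose pattern lay closest to the members were found over the 12 arrays of T0 to T3, among 17465 genes, by Pearson's r. To the mean of the CD3 chains, mostly low signal, these were Ube2o (0.956), Chst13 (0.950), Add2 (0.947), Specc1 (0.947) and Asb1 (0.946). To the mean of Gzma, Prf1 and Nkg7, which Nkg7 dominates by its range, they were Casp1 (0.985), Mgst1 (0.984), Cybb (0.983), Septin1 (0.982) and Serpinb10 (0.981). The arrays fall by stage, so these values mostly rank genes by their stage means. Over T0 to T3 every gene of both groups was lowest at T0, and those of the second group were highest at T2, as Nkg7 was. Over all 15 arrays, 0 of the 5 stayed among the closest 5 in either case, with r of 0.54 to 0.70 for the first group and 0.80 to 0.93 for the second.

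Among the members themselves, over the same 12 arrays, r was 0.948 between Cd8a and Lck, 0.939 between Cd8a and Nkg7 and 0.895 between Cd8a and Cd3g. It was 0.768 between the CD8 chains and 0.685 between Cd3d and Cd3e. Cd4 stood apart from the CD3 chains, with r of -0.191, 0.143 and 0.439 to Cd3d, Cd3e and Cd3g, and Gzma from Cd4 with -0.105. These values are descriptions of arrays that share their stage.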

How the data were processed

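Total RNA of 15 knee cartilage samples (3 a stage, grouped by their titles) was hybridised to Affymetrix RaGene 2.0 ST arrays, per the labels. The authors deposited log2 signals of 36685 probe sets. RMA made them, per the submitters' processing notes. RMA corrects background and equalises probe signals over arrays, so part of any change that most transcripts share is lost. Version, library file and genome build: not given in the sources used here.

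Of the probe sets, 18511 carried 1 gene symbol in the platform annotation, 575 several and 17599 none, and only the first were named. Values were used as deposited. The model was fitted with limma 3.58.1 (lmFit, eBayes; R 4.3.3) and gave each stage a mean, using 15 arrays. P-values were adjusted after Benjamini and Hochberg across all probe sets, separately for 6 comparisons and the F test, and called under 0.05. The code was tested on simulated data. Within-array differences were tested by exact permutation.

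The members and lists were chosen with earlier results of these data known. All 10 members are named. Genes of the lists are named where the F test or a comparison called them, or as pathway genes that did not pass, picked after their values were seen. Each comparison was rerun under up to 24 alternatives: the stage label of T1 replicate 3, the arrays in the fit, array weights, quantile normalization, centring, an intensity trend, a filter on low values, the replicate number and each array left out. For arrays, their number limits the precision.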

Additional observations from a re-analysis of the deposited data

How the results depend on the processing

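Each value of the 10 genes was recomputed under every alternative, and 0 called values changed sign. Values that kept their side of the threshold, and their sign where they had one, numbered 1504. Another 44, called in neither fit, changed sign, 37 gained a call and 58 lost one. The cause was not tested. With 3 arrays a stage, and 7 of the 10 genes under the 95th percentile of the olfactory receptor genes on every T0 array, small changes were not detectable. The alternative that averages a gene's probe sets could not be run, since each member had 1, the T4 arrays cannot be left out of comparisons that use them, and the filter on low values dropped Gzma.

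Counts of the 10 genes moved as follows. From T1 to T2 (0 called) the count was 1 with only the arrays compared, without the T4 arrays and with array weights. From T2 to T3 (0 called) it was 1 without the T4 arrays and 4 with array weights. From T3 to T4 (4 called) a fit of only the arrays compared gave 0, and from T2 to T4 (3 called) it was 5 with array weights. With 1 array left out, the counts ranged from 4 to 5 for T0 to T1, 0 to 1 for T1 to T2, 0 to 1 for T2 to T3, 1 to 5 for T3 to T4, 4 to 6 for T0 to T2, 3 to 4 for T2 to T4 and 6 to 9 for the F test.

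Over all probe sets, T0 to T1 (2772 called) gave 1777 with T1 replicate 3 placed with adult, 5358 with only the arrays compared and 6852 with array weights. T1 to T2 (327) gave 9, 596 and 2381 under the same alternatives in turn, 604 without the T4 arrays and 147 with quantile normalization, of which 63 were higher against 179 of 327. T2 to T3 (55) gave 0 with only the arrays compared, 1895 without the T4 arrays, 10464 with array weights, 10 with quantile normalization, 99 with centred arrays, 85 with the intensity trend and 135 with the filter. T3 to T4 (15493) gave 2532 with only the arrays compared. T0 to T2 (4659) gave 7131 with only the arrays compared and 9230 with array weights, and the F test (22043) gave 9366 without the T4 arrays. With 1 array left out, the counts ranged from 1796 to 3846, 108 to 674, 0 to 4165 and 11534 to 17507 for the 4 successive steps, 3508 to 6042 for T0 to T2, 17626 to 21690 for T2 to T4 and 19908 to 23151 for the F test.

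Replicate numbers did not pair the samples: deviations of same-numbered arrays correlated between -0.19 and 0.124, over 0.1 in 1 of 18 pairs, and 4 arrays correlated best with their own number. With the replicate block, 4 of the 10 genes passed from T0 to T1 and 3 from T3 to T4, and T2 to T3 gave 32 probe sets.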
